A study of Homo sapiens with 7 samples.

Results

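Double-stranded RNA sensors and interferon ligands are described here across 7 two-colour microarrays of colorectal cancer cell lines. The members are 10 genes: the sensors IFIH1, DHX58 and TLR3, the adaptor MAVS, the transcription factors IRF3 and IRF7, the RNA-binding enzymes EIF2AK2 and ADAR, and the ligands IFNB1 and IFNL1. They were chosen by name and role, as sensing genes of the viral mimicry response that has been proposed to follow loss of DNA methylation. All 10 were present, read by 15 of the 41000 probes of the array and making up 10 of 18646 genes with a probe of 1 gene symbol. IRF7 has 2 probes, MAVS and ADAR have 3 each, and the other 7 members have 1.

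Cells detect long double-stranded RNA as a sign of viral replication. The helicases IFIH1 (MDA5) and RIGI act in the cytosol, modulated by DHX58 (LGP2), and pass the signal to MAVS on mitochondria, whereas TLR3 reads double-stranded RNA in endosomes and signals without MAVS. Both routes activate IRF3 and IRF7, which switch on the type I interferon IFNB1 and the type III interferon IFNL1, and the secreted ligands then raise many of the sensors themselves. Silenced endogenous retroviruses, when their DNA methylation is lost, can supply such RNA, and this route has been described in colorectal cancer cells treated with inhibitors of DNA methylation.

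On each array RNA of knockdown cells was set against RNA from that line with a non-silencing control. Whether both arrays of a line share 1 control RNA is not stated. DLD1, HT29 and RKO cells each had 1 array with shRNA 49 and 1 with shRNA 51 against DNMT1, the maintenance DNA methyltransferase, and HCT116 cells had 1 array with an shRNA against UHRF1, which brings DNMT1 to newly copied DNA. The title of the UHRF1 sample carries d14 and its label gives a knockdown efficiency of 60%. Knockdown RNA carried Cy3 with shRNA 49 and Cy5 with shRNA 51 and on the UHRF1 array, so shRNA and dye cannot be told apart. Each array holds a different line or shRNA, and no line and shRNA was repeated. The p-values of the all-lines test thus measure the spread between arrays, which includes differences between lines. Those of the line means and contrasts measure the spread left after line and shRNA. How much of either spread is technical is not known. The values are log2 ratios of bulk RNA, here read as knockdown over control. That direction is likely rather than settled: it rests on DNMT1, which lay below 0 on all 6 DNMT1 arrays, and on the UHRF1 array on the mean of 4 UHRF1 probes (-1.16) that disagree, at -3.10, -2.06, -0.18 and 0.68. A ratio of bulk RNA does not tell more cells with a transcript from more transcript per cell, and because levels are absent, defining markers of colorectal epithelium could not be checked as present.

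Between 205 and 5075 probes of an array had no ratio, with the higher numbers on the shRNA 51 arrays, but every probe of the 10 members had a ratio on all 7 arrays. Between 34.0% and 44.0% of the ratios of an array were held, digit for digit, by at least 1 other probe, and such shared ratios are named below wherever they touch a member. The interquartile range of the ratios lay between 0.56 and 0.73 on the shRNA 49 arrays and between 0.78 and 0.97 on those of shRNA 51. DNMT1 stood between 10.4% and 25.4% of control on 5 arrays and at 52.8% in HT29 with shRNA 51.

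The start regions of 5 members are shown because 4 of them hold an interferon response motif, and because DNA methylation acts at CG dinucleotides there. RefSeq windows (assembly GRCh38.p14, 250 bases before to 50 after a gene's start) matched 7 of the 10 members. Each line gives 220 bases before the start and 10 after it, 5′ to 3′ on the gene's strand. Capitals mark every match on either strand to GAAANNGAA, 9 letters of the interferon-stimulated response element. In IFNB1 they mark the match to GGNNNTTCC, 9 letters found in NF-kB sites, where the same stretch matches the motif on both strands. The 2 motifs did not overlap each other in these windows.

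IFIH1, chr2:162318675-162318904, minus strand: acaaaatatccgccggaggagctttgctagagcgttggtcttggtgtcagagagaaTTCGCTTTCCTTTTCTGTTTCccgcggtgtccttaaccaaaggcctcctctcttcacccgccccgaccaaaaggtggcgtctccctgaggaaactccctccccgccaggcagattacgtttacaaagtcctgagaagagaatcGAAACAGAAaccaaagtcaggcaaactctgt
TLR3, chr4:186068936-186069165, plus strand: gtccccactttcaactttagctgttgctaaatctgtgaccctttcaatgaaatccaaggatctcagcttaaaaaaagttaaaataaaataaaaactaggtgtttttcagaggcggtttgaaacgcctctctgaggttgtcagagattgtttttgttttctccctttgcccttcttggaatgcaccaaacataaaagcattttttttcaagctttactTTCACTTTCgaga
EIF2AK2, chr2:37156971-37157200, minus strand: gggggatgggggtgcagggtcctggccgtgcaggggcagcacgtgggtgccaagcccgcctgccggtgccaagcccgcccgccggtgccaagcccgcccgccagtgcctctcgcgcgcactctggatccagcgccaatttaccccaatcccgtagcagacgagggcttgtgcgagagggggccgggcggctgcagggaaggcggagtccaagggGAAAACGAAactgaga
IFNL1, chr19:39296187-39296416, plus strand: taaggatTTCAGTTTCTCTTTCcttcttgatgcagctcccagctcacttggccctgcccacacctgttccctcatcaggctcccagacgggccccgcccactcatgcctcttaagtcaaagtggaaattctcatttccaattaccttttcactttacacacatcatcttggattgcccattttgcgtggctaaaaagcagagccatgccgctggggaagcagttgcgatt
IFNB1, chr9:21077933-21078162, minus strand: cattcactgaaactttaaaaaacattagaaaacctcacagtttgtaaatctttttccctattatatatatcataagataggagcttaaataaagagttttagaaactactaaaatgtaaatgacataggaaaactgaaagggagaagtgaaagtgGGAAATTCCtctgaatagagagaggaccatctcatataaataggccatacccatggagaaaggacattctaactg

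GAAANNGAA stood in the windows of IFIH1, TLR3, EIF2AK2 and IFNL1 and not in those of MAVS, ADAR and IFNB1, against 8.11% of all 35116 windows. IFIH1 held 4 matches, 3 of them in a row, beginning at positions -164, -158 and -152 from the start, and 1 at -21. IFNL1 held 2, at -213 and -207, and the matches of TLR3 and EIF2AK2 lay across the start itself, beginning at -3 and -6. GGNNNTTCC, held by 20.1% of all windows, was found in IFNB1 at -65, in IFIH1 at -76 and in ADAR at -29 or -55, depending on the start site. It was absent from the window of 1 of the 3 ADAR start sites. The number of CG dinucleotides in the window was 1 for IFNB1, 5 for TLR3, 6 for IFNL1, 12 for IFIH1, 30 for EIF2AK2 and 34 for MAVS, against a median of 14 over all windows, and 13 or 14 for the 3 start sites of ADAR. Against quartiles of 4 and 28 over all windows, IFNB1 lies below the lower one, EIF2AK2 and MAVS above the upper one, and TLR3, IFNL1, IFIH1 and ADAR between them. A match is a run of letters and says nothing of whether a factor was bound. GAAANNGAA is also a strict spelling, so a window without a match, such as that of IFNB1, may still hold a site for interferon regulatory factors.

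One array stood apart from the others. In HT29 cells with shRNA 51, 6 of the 10 members were at least 2-fold above control: DHX58 (10.9-fold), IFIH1 (9.35-fold), EIF2AK2 (4.02-fold), TLR3 (3.56-fold), IRF7 (3.46-fold) and IFNL1 (2.86-fold). Of all genes with a value on that array, 11.5% were at least 2-fold above control. The median log2 ratio of the members was 1.65 there, against a median of 0.05 for all genes. Their medians on the other DNMT1 arrays were 0.07 and -0.03 in DLD1 (shRNA 49, then 51), -0.13 in HT29 with shRNA 49, and 0.31 and 0.06 in RKO. This is also the DNMT1 array on which DNMT1 itself stood highest, at 52.8% of control, and the part of this in the result was not tested. With 1 array per line and shRNA, the array has no replicate, and limma made no test of it alone.

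**Figure D1:**
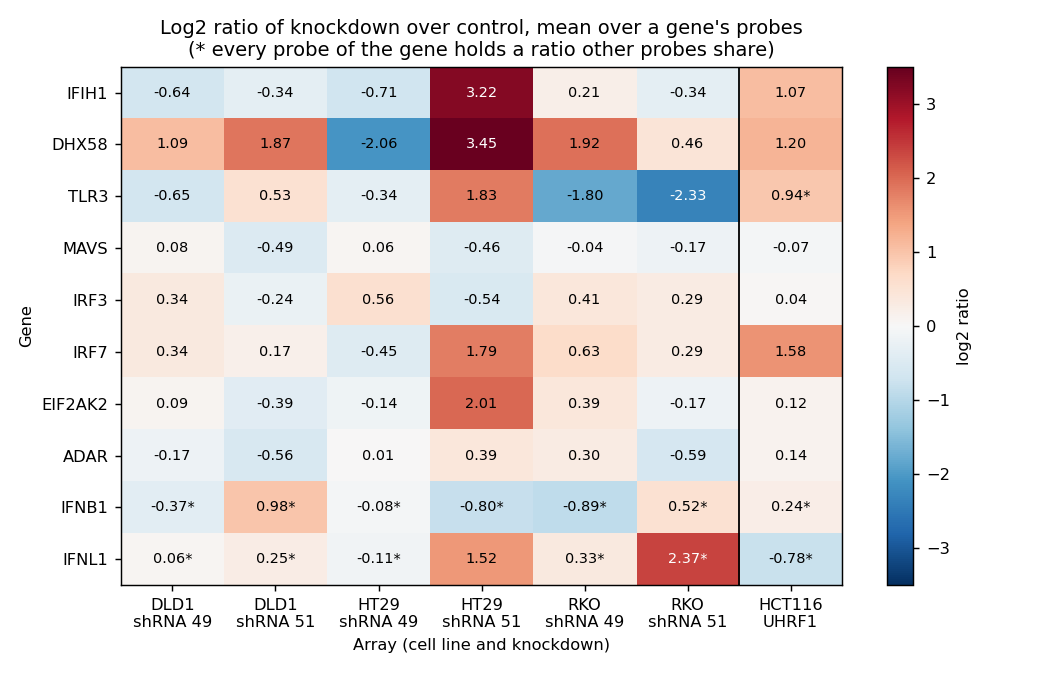
Log2 ratio of knockdown over control for the 10 members (rows) on the 7 arrays (columns, HCT116 with UHRF1 knockdown at the right of the line), averaged over a gene's probes, with red above and blue below 0. HT29 with shRNA 51 holds the deep reds, up to 3.45 for DHX58, TLR3 is blue on both RKO arrays (-1.80 and -2.33), and asterisks mark genes whose ratio on that array is held by further probes too.

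On the remaining DNMT1 arrays few members passed 2-fold. DHX58 was the 1 member at least 2-fold above control on both DLD1 arrays and in RKO with shRNA 49, and IFNL1 the 1 member in RKO with shRNA 51. Over all genes the shares at least 2-fold above control were 2.93% and 13.2% in DLD1, 3.63% in HT29 with shRNA 49, where 0 members reached it, and 5.32% and 13.3% in RKO. Lower by at least 2-fold were DHX58 in HT29 with shRNA 49 and TLR3 on both RKO arrays. The shares of all genes that far below control were 3.63% on that HT29 array and 2.47% and 8.73% in RKO. In DLD1 (2.04% and 4.55% of all genes) and in HT29 with shRNA 51 (4.68%) no member lay that low.

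IFIH1, the sensor of long double-stranded RNA, had log2 ratios of -0.64 and -0.34 in DLD1, -0.71 and 3.22 in HT29 cells, and 0.21 and -0.34 in RKO (shRNA 49, then 51). A single array is high, and the other 5 lie within 1 log2 unit of each other, 4 of them below 0. Its mean over the 6 arrays was 0.23 ± 0.54 (SE, n = 6, limma adjusted p = 0.905). Without HT29 shRNA 51 the mean turned to -0.37 (adjusted p = 0.486). The probe held no shared ratio on any array. As background, IFIH1 is itself an interferon-inducible gene. The 4 GAAANNGAA matches shown above are the most among the 7 members with a window.

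DHX58, a helicase that lacks the signalling domains of IFIH1 and modulates it, was the most variable member. Its log2 ratios were 1.09 and 1.87 in DLD1, -2.06 and 3.45 in HT29 cells, and 1.92 and 0.46 in RKO. It lay above control on 5 of 6 DNMT1 arrays and 4.17-fold below control on the remaining one, HT29 with shRNA 49, so the 2 arrays of HT29 differ by 5.51 log2 units. The mean was 1.12 ± 0.68 (SE, n = 6, adjusted p = 0.594), the highest of the 10 members, and the SD over the 6 arrays was 1.85. The mean stayed above 0 under all 18 alternatives run for it, from 0.32 with shRNA 49 alone to 1.92 with shRNA 51 alone. Several of these, such as the fit without the line block and robust eBayes, change only the spread and could not move the mean of 1.12. DHX58 is read by 1 probe, which held no shared ratio.

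TLR3, the endosomal receptor, had log2 ratios of -0.65 and 0.53 in DLD1, -0.34 and 1.83 in HT29 cells, and -1.80 and -2.33 in RKO. RKO is the line in which both arrays agree, at 3.47-fold and 5.01-fold below control, and they lie below all other arrays. The RKO mean of -2.06 ± 0.50 (SE, n = 2, spread shared over the lines) had an unadjusted p of 0.00983 and an adjusted p of 0.297 in limma. RKO minus HT29 was -2.81 ± 0.70 (unadjusted p = 0.0114, adjusted p = 0.696) and RKO minus DLD1 -2.0 ± 0.70 (unadjusted p = 0.0377, adjusted p = 0.726), so neither difference passed over all genes. Over all lines the mean was -0.46 ± 0.53 (adjusted p = 0.794).

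RIGI, the helicase related to IFIH1 and not a member, is given for comparison and was chosen after its values were seen. It had log2 ratios of 0.02 and 0.73 in DLD1, -0.48 and 2.96 in HT29 cells, and -0.19 and 0.29 in RKO. As for IFIH1, HT29 with shRNA 51 is high, but the order of the other 5 arrays differs, with DLD1 shRNA 51 at 0.73 for RIGI and -0.34 for IFIH1.

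MAVS, the adaptor that joins the cytosolic helicases to interferon induction, stayed close to control. Its log2 ratios, means of 3 probes, were 0.08 and -0.49 in DLD1, 0.06 and -0.46 in HT29 cells, and -0.04 and -0.17 in RKO. Of the 3 probes, A_24_P164854 held a shared ratio on both HT29 arrays. In DLD1 and HT29 the shRNA 51 array lies about as far below the shRNA 49 array, and no array reaches 1.5-fold. The mean was -0.17 ± 0.13 (SE, n = 6, adjusted p = 0.687). The probes disagree in sign: tested singly, 1 averaged 0.20 and the other 2 averaged -0.39 and -0.31 (adjusted p between 0.416 and 0.701).

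IRF3, which is made constantly and is activated by phosphorylation, had log2 ratios of 0.34 and -0.24 in DLD1, 0.56 and -0.54 in HT29 cells, and 0.41 and 0.29 in RKO. The shRNA 49 arrays all lie above the shRNA 51 arrays, without overlap. IRF3 averaged 0.44 with shRNA 49 and -0.16 with shRNA 51, a difference (shRNA 51 minus 49) of -0.60 ± 0.32 that did not pass (unadjusted p = 0.121, adjusted p = 0.530). Its mean over the 6 arrays was 0.14 ± 0.16 (adjusted p = 0.798). IRF3 was thus below control in HT29 with shRNA 51, where its inducible relative was high.

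IRF7, the interferon-inducible relative of IRF3, had log2 ratios of 0.34 and 0.17 in DLD1, -0.45 and 1.79 in HT29 cells, and 0.63 and 0.29 in RKO. Its 2 probes had the same sign on every array, at 1.66 and 1.93 in HT29 with shRNA 51 and at -0.63 and -0.27 with shRNA 49, and at 0.34 and 0.92 in RKO with shRNA 49, where the lower was a shared ratio. The mean was 0.46 ± 0.30 (SE, n = 6, adjusted p = 0.616), with 5 of 6 arrays above 0. It stayed above 0 under all 20 alternatives run for it, between 0.18 and 0.75, though several of these, as for DHX58, could not move it.

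**Figure D2:**
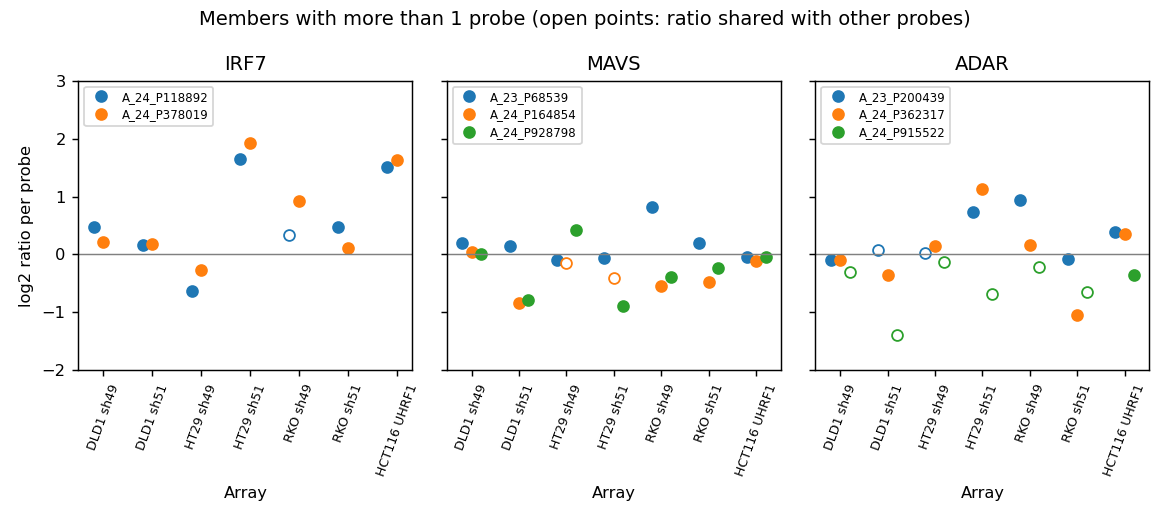
Log2 ratio of each probe of IRF7, MAVS and ADAR on the 7 arrays, 1 colour per probe, with open points for ratios that other probes share. The 2 IRF7 probes lie on the same side of 0 on each array and are farthest apart in RKO with shRNA 49 (0.34 and 0.92), whereas the MAVS probes spread from -0.54 to 0.82 in RKO with shRNA 49 and the ADAR probe A_24_P915522 lies below 0 throughout.

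EIF2AK2 (PKR), the kinase that halts translation when it binds double-stranded RNA, had log2 ratios of 0.09 and -0.39 in DLD1, -0.14 and 2.01 in HT29 cells, and 0.39 and -0.17 in RKO. As for IFIH1, 1 array is high and the other 5 straddle 0, between -0.39 and 0.39. The mean was 0.30 ± 0.36 (SE, n = 6, adjusted p = 0.798) and turned to -0.09 (adjusted p = 0.848) without HT29 shRNA 51.

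ADAR edits adenosine in double-stranded RNA and so keeps cellular RNA from being sensed. Its log2 ratios, means of 3 probes, were -0.17 and -0.56 in DLD1, 0.01 and 0.39 in HT29 cells, and 0.30 and -0.59 in RKO. DLD1 and HT29 do not overlap, RKO overlaps both, and no array differs from control by more than 1.51-fold. The mean was -0.10 ± 0.19 (SE, n = 6, adjusted p = 0.881). In HT29 with shRNA 51 the probes stood at 0.73, 1.13 and -0.68. The first of these, A_23_P200439, held a shared ratio in DLD1 with shRNA 51 and in HT29 with shRNA 49. The last, A_24_P915522, held a shared ratio on all 6 DNMT1 arrays and averaged -0.56 (adjusted p = 0.281). With shared ratios left out the ADAR mean was 0.10 (adjusted p = 0.912).

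IFNB1, the type I ligand that IRF3 and IRF7 induce, had log2 ratios of -0.37 and 0.98 in DLD1, -0.08 and -0.80 in HT29 cells, and -0.89 and 0.52 in RKO. It lay below 0 in HT29 with shRNA 51, the array on which the sensors were high. All of these ratios were shared, each by between 2 and 28 probes of the array counting its own, so the probe has no ratio of its own on any array. The IFNB1 mean was -0.11 ± 0.28 (SE, n = 6, limma adjusted p = 0.921). No value would be left for a test that drops shared ratios.

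IFNL1, the type III ligand that epithelial cells make, had log2 ratios of 0.06 and 0.25 in DLD1, -0.11 and 1.52 in HT29 cells, and 0.33 and 2.37 in RKO. The 2 high arrays both carry shRNA 51, and the others lie within 0.33 of 0. The value in HT29 with shRNA 51 was its only ratio that no other probe held, and the 2.37 of RKO was held by 2 probes. The mean of 0.74 ± 0.29 (SE, n = 6) had an unadjusted p of 0.0378, the 1 of 10 members under 0.05, and an adjusted p of 0.402. That SE leaves out the shRNA difference, and without the shRNA term the limma adjusted p was 0.457. In limma 11.4% of all tested genes had an unadjusted p under 0.05. IFNL1 was 1.29 ± 0.44 higher with shRNA 51 than with shRNA 49 (unadjusted p = 0.0361, adjusted p = 0.431). In RKO its mean was 1.35 ± 0.39 (SE, n = 2, unadjusted p = 0.0186, adjusted p = 0.339). The mean of IFNL1 was 0.09 with shRNA 49 alone and 1.38 with shRNA 51 alone, and 0.50 without RKO shRNA 51. In RKO the ligand and TLR3 thus lie on opposite sides of control on the shRNA 51 array.

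Of the 10 members, 0 passed the all-lines test at an adjusted p of 0.05, in which limma called 0.38% of 17623 genes higher and 0.017% lower. Their means ran in the order DHX58 (1.12), IFNL1 (0.74), IRF7 (0.46), EIF2AK2 (0.30), IFIH1 (0.23), IRF3 (0.14), ADAR (-0.10), IFNB1 (-0.11), MAVS (-0.17) and TLR3 (-0.46). Neighbours in that order differ by less than the sum of their standard errors, which range from 0.13 for MAVS to 0.68 for DHX58. Their median was 0.19, with 6 of 10 above 0, against a median of 0.03 and 55.2% above 0 for all genes tested. Within single lines 0 members passed in DLD1, HT29 or RKO, where 0.0227%, 0.017% and 0.0454% of all genes did. Unadjusted p-values under 0.05 were found for 1551, 1416 and 2201 genes in these lines. The F test between lines called 0 members and 0% of all genes, with TLR3 the lowest (unadjusted p = 0.0269, adjusted p = 0.739), while 6.45% of all genes had an unadjusted p under 0.05. The contrast of shRNA 51 with shRNA 49 called 0 members and 0% of all genes, and 11.2% of all genes had an unadjusted p under 0.05. A p that misses the threshold does not show that a member was unchanged: the SE of the HT29 mean was 0.80 for IFIH1 and 1.17 for DHX58.

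**Figure D3:**
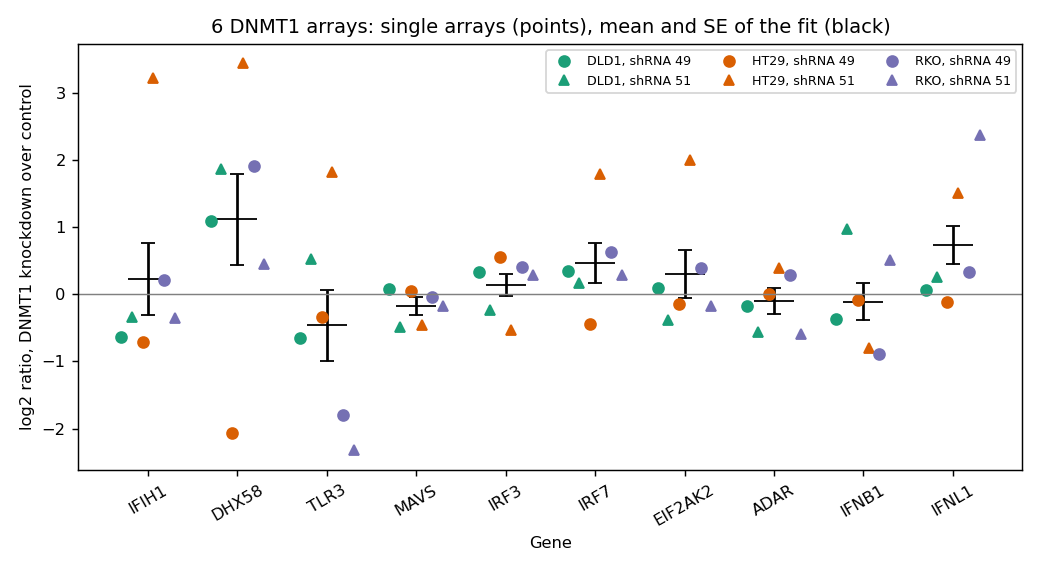
Log2 ratio of DNMT1 knockdown over control for each member (vertical axis) on the 6 DNMT1 arrays, coloured by line, with circles for shRNA 49 and triangles for shRNA 51, and the mean of the 6 arrays with the SE of the fit in black. The orange triangle of HT29 with shRNA 51 lies above the other 5 points for IFIH1, DHX58, TLR3, IRF7, EIF2AK2 and, by a small margin, ADAR, and below or among them for MAVS, IRF3, IFNB1 and IFNL1.

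On the UHRF1 array, from HCT116 cells and with a less certain direction, 3 of 10 members were at least 2-fold above control, against 4.62% of all genes. If the ratio runs the other way, these 3 members and the same 4.62% lie at least 2-fold below control, and every sign given here for this array turns. They were IRF7 (2.98-fold), DHX58 (2.29-fold) and IFIH1 (2.10-fold). Both IRF7 probes read alike, at 1.52 and 1.63. TLR3 stood at 1.92-fold, a ratio held by 6 probes. EIF2AK2 (0.12), ADAR (0.14), IRF3 (0.04) and MAVS (-0.07) lay near 0, and the ligands IFNB1 (0.24) and IFNL1 (-0.78) both held shared ratios. No member was at least 2-fold lower (2.32% of all genes). The members that were high here were also high in HT29 with shRNA 51, whereas EIF2AK2 and IFNL1, high on that HT29 array, were not at least 2-fold above control here. DNMT1 was at 106% of control on this array. With a single array these values have no replicate check.

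The wider pathway was described with 7 lists, of which 95 genes had values and 88 were tested. The test called 1 of the 88, the chemokine CXCL11, an interferon target (2.03 ± 0.24, adjusted p = 0.0346), and 0 fell. In DLD1, HT29 and RKO, CXCL11 read 3.67, 4.21 and 3.90 on the shRNA 51 arrays but 0.98, -0.45 and -0.17 on the shRNA 49 arrays, and it read -0.73 on the UHRF1 array. Its high values thus lie on the shRNA 51 arrays, where knockdown RNA carried the other dye, its signs are mixed with shRNA 49, and the SE of the fit leaves out that difference. Further sensors and RNA-binding effectors had a median all-lines mean of 0.07, with 10 of 18 above 0. The largest belonged to the 2-5 oligoadenylate synthetases OAS1 (0.71) and OAS3 (0.69), which activate RNase L. In HT29 with shRNA 51, 8 of 18 of these genes were at least 2-fold above control, among them OAS1 (3.04) and OAS3 (3.74), against 11.5% of all genes.

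Adaptors and kinases between sensor and transcription factor had a median of 0.10, with 13 of 17 above 0. MYD88, the adaptor of most Toll-like receptors, averaged 0.49 ± 0.13 (limma unadjusted p = 0.00819, adjusted p = 0.257) and the protease CASP10 averaged 0.36. The SE of MYD88 leaves out the shRNA difference. MYD88 read 0.72, 0.98 and 0.86 with shRNA 51 and 0.24, 0.16 and -0.02 with shRNA 49 (DLD1, HT29, RKO). In HT29 with shRNA 51, 2 of these 17 genes were at least 2-fold above control, a share near the 11.5% of all genes on that array. The other interferon regulatory factors had a median of 0.29 over 6 genes, with IRF4 at -0.62 and IRF9, part of the factor that interferon receptors activate, at 0.54. IRF9 stood at 3.07 in HT29 with shRNA 51, at -1.07 there with shRNA 49 and at 1.81 on the UHRF1 array.

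The other interferon ligands had a median of -0.09 over 9 tested genes, 4 of them above 0. IFNA5 averaged -0.97 ± 0.19 (limma unadjusted p = 0.00171, adjusted p = 0.143) and IFNK -0.61. The SE of IFNA5 leaves out the shRNA difference. IFNA5 read -0.94, -2.13 and -1.23 with shRNA 51 and -0.45, -0.55 and -0.51 with shRNA 49 (DLD1, HT29, RKO). The median of these other ligands was -1.57 in HT29 with shRNA 51, on which 7 of 14 had a value. Shared ratios were not counted for them. There 2 ligands were at least 2-fold above control, both named after their values were seen: the type I ligand IFNA21 at 1.99 and the type III ligand IFNL2 at 1.24. IFNL2 stood beside the 1.52 of IFNL1, and averaged 0.23 over the lines (adjusted p = 0.691), and IFNA21 averaged 0.57 (adjusted p = 0.628). The receptors and kinases that interferons use had a median of -0.04 over 9 genes, with TYK2 at 0.19 and IFNAR2 at -0.18, and 1 of 8 was at least 2-fold above control in HT29 with shRNA 51, again near the share of all genes.

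Genes that restrain sensing and signalling had a median of 0.07 over 17 genes. The NF-kB inhibitor TNFAIP3 averaged 0.82 ± 0.38 (adjusted p = 0.481) and USP18, which blocks interferon receptor signalling, 0.50. In HT29 with shRNA 51 they stood at 2.47 and 3.97, and 6 of 17 of the list were at least 2-fold above control. The interferon targets had a median of 0.38 over 12 genes, led by IFI27 (2.17 ± 0.72, adjusted p = 0.339). Their array medians were -0.45 and 0.40 in DLD1, -0.97 and 4.26 in HT29 cells, 0.43 and -1.04 in RKO, and 1.17 on the UHRF1 array. All 12 targets with a value in HT29 with shRNA 51 were at least 2-fold above control there, against 11.5% of all genes. On the UHRF1 array 7 of 13 were, against 4.62% of all genes, or were that far below control if its ratio runs the other way. The members' order of arrays, highest in HT29 with shRNA 51 and lowest in HT29 with shRNA 49, is thus that of the targets only at the upper end, since the targets were lowest in RKO with shRNA 51.

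**Figure D4:**
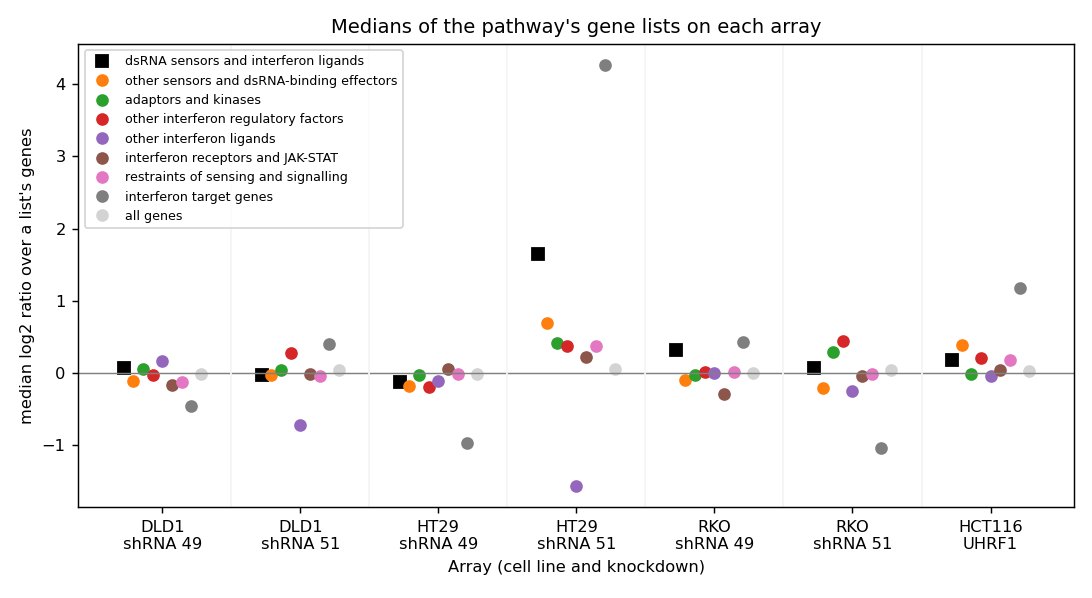
Median log2 ratio of each pathway list (circles), of the 10 members (black squares) and of all genes (light grey) on the 7 arrays. In HT29 with shRNA 51 the members (1.65) and the interferon targets (4.26) stand above all genes (0.05). The other ligands (-1.57, with a value for 7 of 14) stand below. On the UHRF1 array the targets stand at 1.17.

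Markers of cells that could supply interferon or its targets were set beside that HT29 array. Its median was 0.15 for 6 haematopoietic markers, with 0 of 6 at least 2-fold above control, and -0.04 for 5 markers of plasmacytoid dendritic cells, with IL3RA (1.50) and TCF4 (2.31) past that fold and the defining CLEC4C (-2.40) and LILRA4 (-0.04) not. For fibroblasts and endothelium it was 0.94 over 7 markers, 2 of them past that fold, the endothelial adhesion gene PECAM1 (2.37) and the collagen gene COL3A1 (1.36), and for colorectal epithelium 0.08, with 0 of 7. The part of these markers in the result was not tested.

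Across all genes with a promoter window, 15.7% of the 1179 with GAAANNGAA were at least 2-fold above control in HT29 with shRNA 51, and 10.4% of the 12214 without it. On the UHRF1 array the shares were 5.42% and 4.33%, in RKO with shRNA 51 15.0% and 12.5%, and in DLD1 with shRNA 51 12.5% and 12.4%. With shRNA 49 they were 2.61% and 2.74% in DLD1, 3.16% and 3.55% in HT29 cells, and 4.61% and 4.95% in RKO. The 4 members with the motif were all at least 2-fold above control in HT29 with shRNA 51, and the 3 with a window and no match were not. Of these 3, ADAR is a mean of probes at 0.73, 1.13 and -0.68 on that array, the last a shared ratio. The IFNB1 ratio there was held by 11 probes. DHX58 and IRF7, also high on that array, and IRF3, which was not, have no window here, so the motif was not read for 2 of the 6 high members. These shares describe single arrays and carry no test.

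Genes with the nearest pattern were sought among 15694 genes with values on all 7 arrays, by the root mean square difference of log2 ratios. For IFIH1 they were PLSCR1 (0.33), CIBAR1 (0.39), LINC00208 (0.42), HCP5 (0.42) and PARP9 (0.42), which stood between 2.64 and 3.27 in HT29 with shRNA 51. Their Pearson correlations with IFIH1 over the 7 arrays lay between 0.95 and 0.99 and are a description. LINC00208 held shared ratios on all 7 arrays, the HCP5 probes on between 2 and 5, and the CIBAR1 probe A_32_P103695 on 2. For DHX58 the nearest were NEB (0.78), IL20RB (0.83), SPRR3 (0.96), IRF9 (0.96) and CEACAM7 (0.98), which are larger differences. DHX58 was also the most variable member, and its correlations with these genes lay between 0.83 and 0.94. For IFNB1 they were TREM2 (0.18), NTSR2 (0.22), STK39 (0.24), YPEL5 (0.27) and SSBP1 (0.28), and for IFNL1 OPCML (0.17), CRYBA4 (0.28), LINC01013 (0.33), KCNJ5-AS1 (0.34) and CYP1A1 (0.37). Of the genes nearest to the ligands, TREM2, NTSR2 and the 5 genes near IFNL1 held shared ratios on between 4 and 7 arrays per probe. The SSBP1 probe A_24_P913132 did so on 5. Of the genes nearest to DHX58, NEB, SPRR3 and CEACAM7 held shared ratios on between 1 and 3 arrays per probe.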

How the data were processed

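The authors deposited a single log ratio for each probe of an array, read here as log2 from its range. The submitters' processing notes name limma. Its version and the background correction, normalization, log base and sign are not given in the sources, and signal strengths were not used here, so dim probes were not filtered. Array medians lay between -0.02 and 0.02. Probes were named by the platform annotation from GEO, and probes with exactly 1 symbol were averaged per gene. Testing required a value on 5 or more of the 6 DNMT1 arrays. Limma 3.58.1 in R 4.3.3 fitted the mean against 0 with the shRNA as a term and the line as a random block (estimated correlation 0.165), and line means, differences and the shRNA contrast with 1 coefficient per line plus the shRNA. Tests were two-sided, with Benjamini-Hochberg adjustment over all genes tested and calls under 0.05, and the fit was tested on simulated data. Each SE is that of the fit, which removes the mean shRNA difference. Arrays with the same shRNA deviated together (correlations of the shRNA difference between lines of 0.30, 0.20 and 0.16 over 15793 genes). All pairs of arrays correlated between -0.03 and 0.26 over probes. The members and lists were chosen with earlier results of these data known. All members were named, with the genes of each list that passed the test, its 2 largest means, and the 5 genes nearest to IFIH1, DHX58, IFNB1 and IFNL1. No genome build is given for the arrays, so coordinates are printed for the RefSeq windows alone. The number of arrays limits the precision.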

Additional observations from a re-analysis of the deposited data

Results flagged for a closer look

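IFIH1 at 3.22 and EIF2AK2 at 2.01, both in HT29 with shRNA 51, lay far from the other DNMT1 arrays: their gap to the next array, as a share of the range of the 6, exceeded Dixon's critical value. Of 20 such comparisons (the highest and the lowest array of 10 members) 2 were this far apart. They concern 2 of 10 groups of 6 arrays. Chance alone flags about 1 in 20 groups where groups are independent and the arrays of a group spread alike. Here both flags fall on the same array, so they cannot be counted against that rate as separate events. ADAR lay below 0 on both DLD1 arrays (mean -0.36) and above 0 on both HT29 arrays (mean 0.20). This was set aside by its signs alone. The limma difference of HT29 minus DLD1 was 0.56 ± 0.43 (adjusted p = 0.854), and 1 of the 3 ADAR probes held shared ratios on all of these arrays.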

How the results depend on the processing

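No member passed under any alternative of the all-lines test, the line means, the F test or the shRNA contrast. The fit without the replicate block of shRNAs called 10 genes higher and 0 lower, against 67 and 3. Called higher and lower were 30 and 0 after quantile normalization, 16 and 0 when each line entered as the average of its arrays, 5 and 0 with shRNA 49 alone, and 19 and 0 with shRNA 51 alone. Called lower were 7 without the line block, 1 with robust eBayes and 5 when each probe was tested. Leaving out 1 array, with values required on the other 5, gave 9 to 59 higher (9 without RKO shRNA 49, 16 without DLD1 shRNA 49, 21 without HT29 shRNA 49) and 0 to 5 lower. Some members' means changed sign between alternatives. With shRNA 49 alone IFIH1 was -0.38, MAVS 0.033 and ADAR 0.047, and with shRNA 51 alone TLR3 was 0.011, IRF3 -0.16 and IFNB1 0.24. Leaving out 1 array, IFIH1 ranged from -0.37 to 0.57, EIF2AK2 from -0.092 to 0.52 (both lowest without HT29 shRNA 51), TLR3 from -0.89 (without HT29 shRNA 51) to 0.071 (without RKO shRNA 51), and IFNB1 from -0.29 to 0.17. ADAR was 0.10 without shared ratios, and 1 probe each of ADAR (0.27) and MAVS (0.20) lay above 0. Without shared ratios the members' median moved to -0.29 in DLD1 and -0.17 in RKO with shRNA 51, and IFNB1 and IFNL1 could not be tested. With the median over probes it was 0.30 on the UHRF1 array. The members' median in HT29 with shRNA 51 lay between 1.23 and 1.79. The cause of these shifts was not tested.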
